A study of Mus musculus with 28 samples.

Results

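Focal adhesion kinase (FAK, gene Ptk2) was deleted from mouse liver epithelium in 2 ways. The genes described here are those whose estimated responses to the deletion differed and had opposite signs under the 2 methods. The members are the 417 genes, of 13955 tested and 35275 listed, for which the difference between the genotype effects passed the test and the effects had opposite signs. Both effects also passed on their own in 28 of the 417. The values come from 12 of the 28 libraries of the series, 3 whole livers in each of 4 groups.

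All 12 mice had both Ptk2 alleles flanked by loxP sites (FAKfl/fl). The FAKfl/fl line was FVB, and the strain of the Alb-Cre mice it was bred with is not given. Xist was at most 0.0148 FPKM and Ddx3y at least 9.11 FPKM in every liver, as in males. All ate chow with 0.1% w/w DDC (3,5-diethoxycarbonyl-1,4-dihydrocollidine), which obstructs small bile ducts and leads to biliary fibrosis. The protocol gives 4 to 8 weeks of diet, and neither the length for each library nor the age of these mice is given in the sources used here. Bred KO mice were FAKfl/fl;Alb-Cre+, in which the albumin promoter drives Cre from the fetal liver onward in hepatocytes and cholangiocytes, and Bred WT mice were FAKfl/fl;Alb-Cre- and received no vector. Virus KO mice were FAKfl/fl;Alb-Cre- animals that received AAV8-TBG-Cre, an adeno-associated virus whose thyroxine-binding globulin promoter restricts Cre to hepatocytes, before the diet began, and Virus WT mice received the Cre-free vector AAV8-TBG-Null. The deletion method, the vector, the time of deletion and the deleted cell types therefore cannot be told apart, nor can a sequencing batch, which is not given. Titles number the mice separately.

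FAK is a tyrosine kinase that relays signals from integrins, the receptors for extracellular matrix, to the cytoskeleton and to growth pathways. In cholestatic liver, bile acids held back in hepatocytes act on the nuclear receptor FXR and lower bile acid synthesis, while stressed epithelium switches on rapidly induced transcription factors and stellate cells lay down collagen. Livers also carry strong fasting, growth hormone and daily rhythms that move many hepatocyte genes.

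Ptk2 itself did not turn. It was measured at 8.35, 5.16 and 5.99 FPKM (fragments per kilobase of gene, scaled to library depth) in the 3 Bred WT livers and at 2.03, 2.35 and 2.10 in Bred KO livers. Virus WT livers held 5.52, 5.87 and 6.59 FPKM of Ptk2 and Virus KO livers 3.06, 2.94 and 2.43. The groups did not overlap under either method, with the highest KO liver still under the lowest control. Ptk2 fell by 1.70 ± 0.19 (SE) on the log2 scale in Bred mice and by 1.26 ± 0.19 in Virus mice (edgeR quasi-likelihood, adjusted p = 0.003 and 0.0058), and the difference of the 2 effects did not pass the test (-0.45 ± 0.26, adjusted p = 0.40). The call in Bred mice was lost when those 6 libraries were fitted alone.

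Totals ran from 15795289 to 20428773 counted fragments per library. On the first principal component (28.3% of the variance) the Virus WT livers lay at 40.1 to 45.9, the Virus KO livers at 3.88 to 10.8 and the 6 Bred livers at -38.2 to -11.8. The second component (18.2%) set Bred WT 1 at 65.5 and all others between -33.2 and 15.95. Hepatocyte marker transcripts summed to 37400 to 40000 FPKM in Bred WT livers, 39500 to 51900 in Bred KO livers, 29300 to 35000 in Virus WT livers and 34000 to 35000 in Virus KO livers, far above the sums of the other cell types' markers. Macrophage markers summed to 1200 to 1660, 1530 to 2000, 1830 to 2100 and 2270 to 2800 FPKM in the same order, and stellate cell markers to 239 to 369, 451 to 604, 312 to 401 and 392 to 527. The part of these differences in the results was not tested, and in whole liver fewer cells of a type and less RNA per cell cannot be told apart.

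The difference between the genotype effects, Bred minus Virus, passed an adjusted p of 0.05 for 448 genes, which is 3.21% of those tested (edgeR quasi-likelihood over all 12 libraries, Benjamini-Hochberg adjustment). It was positive for 279 genes (2%) and negative for 169 (1.21%), and 2459 genes passed at an unadjusted p of 0.05. Opposite signs of the effects were found in 417 of the 448 genes (2.99% of all tested), and in 6091 of all genes tested (43.6%) with no threshold. The contrast that chose these genes favours opposite signs, so this count is a description. Of the 417 genes, 269 were higher in Bred KO than in Bred WT livers and lower in Virus KO than in Virus WT livers, and 148 had the reverse pattern. The difference exceeded 4-fold in 108 of them, lay between 2- and 4-fold in 214 and was under 2-fold in 95, and 23 had a mean below 1 FPKM in every group. Just inside the threshold lay Epop (2.71, adjusted p = 0.05) and Epb41l4b (-0.63, adjusted p = 0.0499), and just outside it Lox (1.43) and Slc38a2 (1.56), both with an adjusted p of 0.05.

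The number of turning genes depended on single livers. It fell to 116 without Virus KO 1, 150 without Virus WT 1, 156 without Virus KO 3, 174 without Bred KO 2, 176 without Virus KO 2, 228 without Virus WT 3 and 266 without Bred WT 3. Without Bred WT 1, the liver that stood apart on the second component, it was 478.

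**Figure D1:**
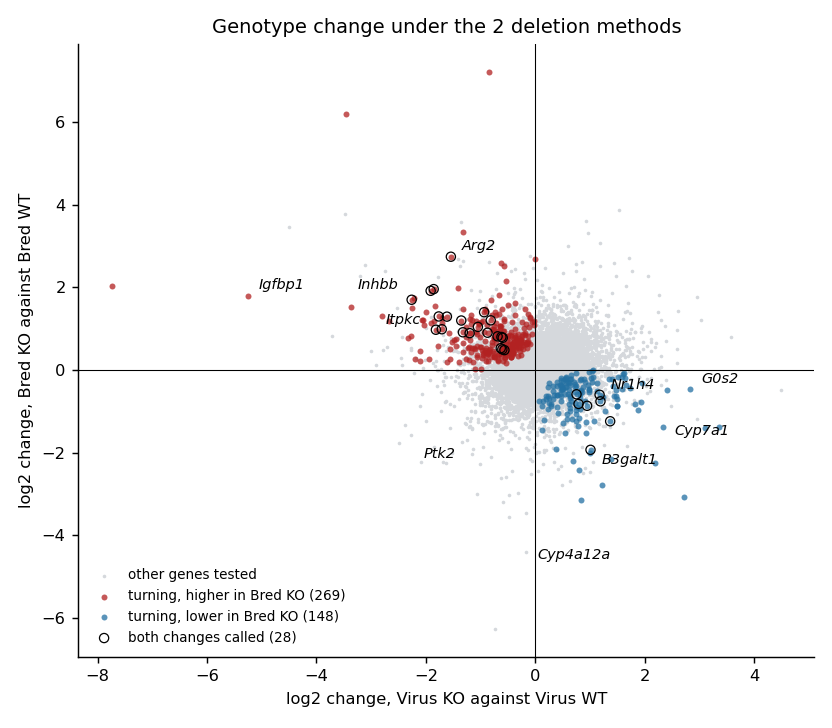
Each point is a gene, plotted by its log2 change in Virus KO against Virus WT livers (x axis) and in Bred KO against Bred WT livers (y axis), 3 livers a group. The 269 red genes fill the upper left and the 148 blue genes the lower right, circles mark the 28 genes called in both comparisons, and Ptk2 lies at lower left with both changes negative.

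Which group carried each turn was read from the levels. In 252 turning genes (60.4%, against 34.6% of all genes) the WT livers of the 2 methods differed at least 2 times as much as the KO livers, and in 29 (6.95%, against 22.6%) the KO livers differed at least 2 times as much as the WT livers. Each gene was also counted under a single group whose 3 livers all lay above or all below the 9 other libraries. Where 2 groups did so, the later in the order Bred WT, Bred KO, Virus WT, Virus KO was kept. Plat and B3galt1 were counted under Virus WT, for example, although the Bred WT livers lay apart too. Counts and shares of every group but Virus KO are therefore lower limits and do not rank the groups. Virus WT was counted as the high group in 99 turning genes (23.7%, against 5.88% of all genes tested) and as the low group in 75 (18%, against 5.45%). Bred WT was counted as the high group in 20 genes (4.8%, against 2.46%) and as the low group in 58 (13.9%, against 2.31%). Bred KO was high in 22 genes (5.28%, against 3.07%) and low in 10 (2.4%, against 3.18%), and Virus KO was high in 4 (0.959%, against 0.924%) and low in 6 (1.44%, against 0.76%). In the remaining 123 genes none of the groups stood apart. The same libraries chose the turning genes, so these shares are a description.

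Methods were also compared within a genotype. Bred WT and Virus WT livers differed in 2290 genes (16.4% of those tested, 8.45% higher and 7.96% lower in Bred WT), among them 356 of the 417 turning genes (85.4%), whereas Bred KO and Virus KO livers differed in 422 genes (3.02%), among them 56 turning genes (13.4%). The median absolute difference between methods over the turning genes was 0.997 on the log2 scale in WT livers and 0.399 in KO livers. These comparisons share their libraries with the contrast that chose the genes and are not independent of it. The count in WT livers was 1119 without Virus WT 1 and 1377 without Virus WT 3. In KO livers the count was 58 without Virus KO 1, 72 without Bred KO 2, 88 without Virus KO 2, 122 without Virus KO 3, 276 without Virus WT 1, 280 without Bred KO 3, 805 without Bred WT 1 and 1010 without Bred KO 1.

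**Figure D2:**
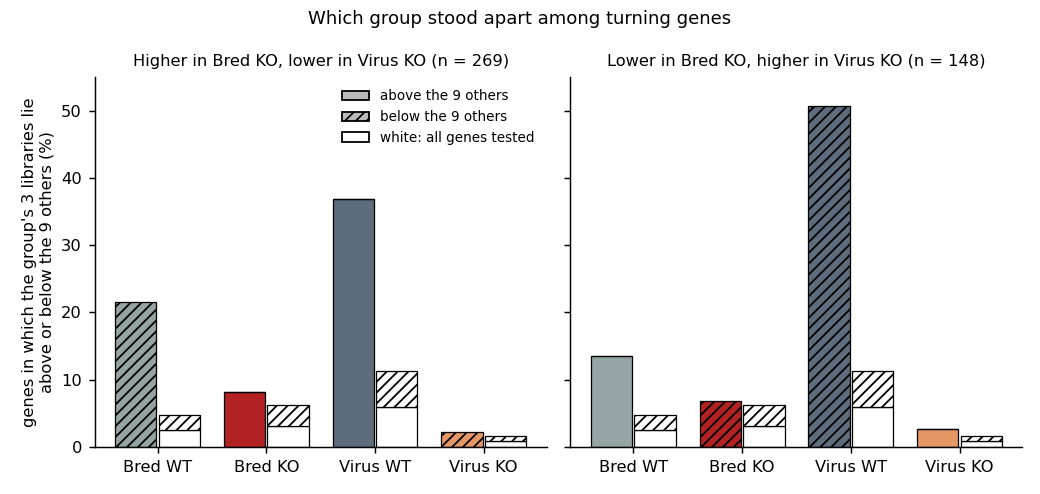
Bars give the percentage of turning genes in which all 3 livers of the named group lay above (plain) or below (hatched) the 9 others, for the 269 genes higher in Bred KO (left) and the 148 lower in Bred KO (right), with white bars for all genes tested. Virus WT was counted at 36.8% as the high group on the left and 50.7% as the low group on the right. Bred WT was counted at 21.6% as the low group on the left and 13.5% as the high group on the right. Each gene is counted under a single group, the later in the order of the axis, so all bars but those of Virus KO are lower limits.

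**Figure D3:**
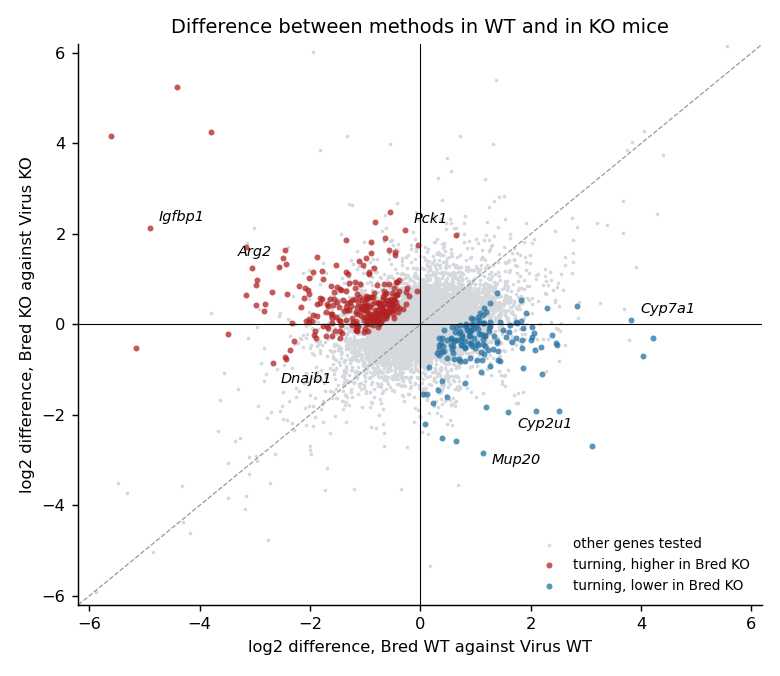
Each gene is plotted by its log2 difference between Bred WT and Virus WT livers (x axis) and between Bred KO and Virus KO livers (y axis), and 4 genes lie outside the axes. Turning genes spread along the x axis, with Pck1 among the exceptions that lie along the y axis, and Dnajb1 is lower in Bred livers of both genotypes.

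In terms of the effects, the Bred change was at least 2 times the Virus change in 86 turning genes (20.6%, against 32.9% of all genes), the Virus change was at least 2 times the Bred change in 103 (24.7%, against 25.8%), and the remaining 228 (54.7%, against 41.3%) lay between. Knockout changed 872 genes in Bred mice (6.25% of those tested, 442 higher and 430 lower) and 371 genes in Virus mice (2.66%, 197 higher and 174 lower). Of the turning genes, 179 were called in Bred mice, 155 in Virus mice, 28 in both (0.201% of all tested; 21 higher and 7 lower in Bred KO, or 0.15% and 0.0502%) and 111 in neither. KO and WT livers failed to overlap under both methods in 250 turning genes (60%), compared with 8.81% of all genes, or 3.03% of all genes when opposite signs are also asked for. The same libraries chose the turning genes, and that choice favours such separation. Shares of turning genes in this paragraph are therefore a description. In a further pattern, called crossed here, all 3 Bred KO and all 3 Virus WT livers lay on the same side of the 6 others. It was found in 88 turning genes with those groups high (21.1%, against 0.853% of all genes tested). With those groups low it was found in 32 (7.67%, against 0.365%). The Bred count was 248 without Bred KO 2, 315 without Bred WT 1, 316 without Bred KO 3, 540 without Virus KO 1 and 567 without Virus KO 3. The Virus count was 64 without Virus KO 1, 82 without Virus WT 1, 89 without Virus KO 3, 96 without Virus KO 2, 172 without Virus WT 2, 179 without Virus WT 3 and 688 without Bred WT 1. When the 6 Bred libraries were fitted alone with edgeR, 0 genes passed, 2360 had an unadjusted p under 0.05, DESeq2 on the same libraries called 769, and edgeR with the replicate number as a block called 1269. The 6 Virus libraries fitted alone with edgeR gave 1306 genes, so the order of the Bred and Virus counts depended on the fit.

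Among turning genes higher in Bred KO livers, the smallest p belonged to Itpkc. Itpkc, an inositol trisphosphate kinase, is encoded on chromosome 7 (27207172 to 27228628, minus strand, GRCm38). Its level was 3.29, 4.85 and 4.17 FPKM in Bred WT and 8.23, 9.22 and 8.76 in Bred KO livers. Virus WT livers held 18.5, 13.2 and 17.6 FPKM of Itpkc and Virus KO livers 4.94, 5.38 and 5.34. The Virus WT livers were the highest of the 4 groups, the Bred KO livers came next, and the groups did not overlap under either method. Itpkc rose by 0.97 ± 0.17 in Bred mice (adjusted p = 0.0093) and fell by 1.82 ± 0.17 in Virus mice (adjusted p = 0.00072), a difference of 2.79 ± 0.24 or 6.92-fold (adjusted p = 0.00037), with the log2 scale used for all such changes here.

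Inhbb, the beta B subunit of activin and inhibin, had the same shape at a larger size. In Bred mice its FPKM were 1.64, 3.49 and 2.95 in WT and 12.7, 8.28 and 7.76 in KO livers. In Virus mice they were 22, 13 and 27 in WT and 6.09, 4.36 and 4.01 in KO livers. Every Virus WT liver was above all others, and each Bred KO liver was above every liver of Bred WT and Virus KO. Inhbb rose 3.25-fold in Bred mice (1.70, adjusted p = 0.011) and fell 4.79-fold in Virus mice (-2.26, adjusted p = 0.0036), with a difference of 3.96 ± 0.44 (adjusted p = 0.0017).

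In the thrombin receptor gene Thbd the Bred WT livers stood apart, as the low group. These held 2.61, 1.96 and 3.08 FPKM, compared with 15.2, 8.99 and 7.23 in Bred KO livers, 15.4, 8.55 and 20.1 in Virus WT livers and 3.91, 3.74 and 5.46 in Virus KO livers. The Bred WT livers were the lowest of all, and Bred KO and Virus WT livers had overlapping high ranges. Thbd rose by 1.92 ± 0.32 and fell by 1.91 ± 0.31 (adjusted p = 0.0086 and 0.01). Plat, the tissue plasminogen activator that starts the breakdown of clots, was also low in Bred WT (1.81, 2.61 and 3.28 FPKM) against 8.96, 8.24 and 7.75 in Bred KO livers. In Virus mice Plat went from 11.6, 9.61 and 9.34 FPKM to 7.60, 8.40 and 8.23, and that change did not pass (-0.50 ± 0.18, adjusted p = 0.16), so Bred mice carried the turn of 2.08 ± 0.26 (adjusted p = 0.0023).

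Shb, an SH2 adapter of tyrosine kinase signalling, was even across replicates in both WT groups and less so in the KO groups. It measured 26.1, 26.8 and 25.1 FPKM in Bred WT livers, 62.7, 51.7 and 44.1 in Bred KO livers, 60.3, 58.6 and 61.1 in Virus WT livers and 42.3, 34.6 and 33.2 in Virus KO livers. Bred KO and Virus WT livers formed the high side and the 6 others the low side, without overlap. Shb rose 1.87-fold and fell 1.83-fold (adjusted p = 0.0077 and 0.0091). Arg2, the mitochondrial arginase, was low in Bred WT livers (0.295, 0.308 and 0.177 FPKM) and higher in Bred KO (2.82, 1.57 and 1.42), while Virus WT livers (1.80, 1.52 and 3.10) were above Virus KO livers (0.628, 0.798 and 1.03). The crossed pattern held in Arg2 too, and its difference was 4.28 ± 0.56 (adjusted p = 0.0034).

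Some genes of contractile and adhesive structures also turned. Tagln, which encodes the actin-binding protein transgelin, was at 5.17, 3.86 and 4.38 FPKM in Bred WT and 11.4, 12.6 and 9.23 in Bred KO livers, then at 22.7, 16.5 and 19.2 in Virus WT livers and 6.28, 11.5 and 7.83 in Virus KO. Virus WT livers stood above all others, and the difference was 2.55 ± 0.33 (adjusted p = 0.0031). Itga3, the alpha subunit of a laminin-binding integrin, rose 2.30-fold in Bred mice and fell 1.76-fold in Virus mice (2.02 ± 0.28, adjusted p = 0.0038). Pxn, the focal adhesion scaffold paxillin and a FAK substrate, was 1 turning gene among 23 tested FAK partners, a share of 4.35% that is close to the 2.99% of all genes. Its FPKM were 17.4, 24.0 and 23.5 in Bred WT and 31.0, 34.5 and 36.7 in Bred KO livers, against 30.7, 31.8 and 37.1 in Virus WT livers and 28.6, 28.9 and 29.7 in Virus KO. The Bred WT livers were the low group, and the difference of 0.89 ± 0.20 (adjusted p = 0.031) was lost in 7 of 12 fits that left out a library. The stellate cell gene Acta2 had a like pattern of means without passing the test (2.25 ± 0.76, adjusted p = 0.14), although DESeq2 called it.

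In Trp53inp1, Maff and Akap12 the change was called in Virus mice and not in Bred mice. Trp53inp1, a p53-induced stress gene, measured 17.2, 13.8 and 11.7 FPKM in Bred WT livers, 21.3, 19.6 and 13.5 in Bred KO livers, 52.5, 39.5 and 51.9 in Virus WT livers and 12.2, 11.3 and 14.1 in Virus KO livers. Only the Virus WT livers were out of range of the rest. Trp53inp1 fell 4.29-fold in Virus mice (adjusted p = 0.00072), and its Bred change of 0.23 ± 0.20 did not pass (adjusted p = 0.51). Maff, a small Maf transcription factor, and Akap12, a kinase scaffold, likewise fell in Virus mice (-2.32 ± 0.26 and -2.28 ± 0.26) and did not pass in Bred mice (0.77, adjusted p = 0.08, and 0.83, adjusted p = 0.071). In both, however, all Bred KO livers lay above all Bred WT livers, and the crossed pattern was found. Akap12 also differed between the knockouts (1.16, adjusted p = 0.034).

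Immediate early genes, which cells switch on within minutes of a stimulus, were the list with the most turning members. Of 24 tested, 8 turned, all higher in Bred KO (33.3%, against 1.93% of all genes in that direction): Klf4, Klf2, Btg2, Dusp1, Fosl1, Junb, Dusp6 and Klf6. The median difference over the 24 genes was 1.39, compared with -0.0351 over all genes tested. In Bred mice 7 members rose (against 3.17% of all genes), in Virus mice 5 fell (against 1.25%), and 12 were lower in Bred WT than in Virus WT livers (against 7.96%). Between the knockouts 0 of the 24 passed by edgeR, 4 had an unadjusted p under 0.05 and DESeq2 called 2.

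Klf4, a zinc-finger factor, was at 1.13, 1.32 and 1.02 FPKM in Bred WT and 3.02, 3.32 and 3.61 in Bred KO livers. In Virus mice Klf4 was at 3.75, 2.42 and 3.55 in WT and 1.45, 2.11 and 2.15 in KO livers. Neither pair overlapped, and Klf4 rose 2.64-fold and fell 1.91-fold (adjusted p = 0.0077 and 0.039). Its relative Klf2, known as a flow-responsive factor of endothelium, turned through Bred WT. The Bred WT livers held 5.10, 10.3 and 11 FPKM of Klf2, against 23.8, 23.5 and 25.4 in Bred KO livers, 21.1, 24.4 and 27.9 in Virus WT livers and 16.8, 16.5 and 18.9 in Virus KO. All Bred WT livers were below the 9 others, and the fall in Virus mice did not pass (-0.66 ± 0.21, adjusted p = 0.12). The endothelial junction gene Cdh5 turned by 0.82 ± 0.17 (adjusted p = 0.023), and 14 endothelial markers summed to 108 to 131 FPKM in Bred WT livers, 145 to 167 in Bred KO livers, 128 to 148 in Virus WT livers and 148 to 149 in Virus KO livers. The part of that difference in Klf2 was not tested.

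Btg2, an antiproliferative gene, and Dusp1, a phosphatase that switches off MAP kinases, moved alike. Btg2 was at 6.31, 9.71 and 4.88 FPKM in Bred WT livers, 16.2, 22.6 and 16.3 in Bred KO livers, 31.5, 13.9 and 42.3 in Virus WT livers and 8.92, 11.7 and 11.3 in Virus KO livers. Dusp1 was at 6.05, 12.1 and 8.24, then 21.9, 39.1 and 16.9, then 25.7, 20.3 and 42.4, and finally 12.6, 13.1 and 14.0 FPKM in the same 4 groups. In both genes the Bred KO and Virus WT livers were above the 6 others, with wide spread among Virus WT livers. The differences were 2.91 ± 0.49 for Btg2 and 2.78 ± 0.50 for Dusp1 (adjusted p = 0.011 and 0.014). The fall of Dusp1 in Virus mice did not pass (-1.31, adjusted p = 0.066).

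**Figure D4:**
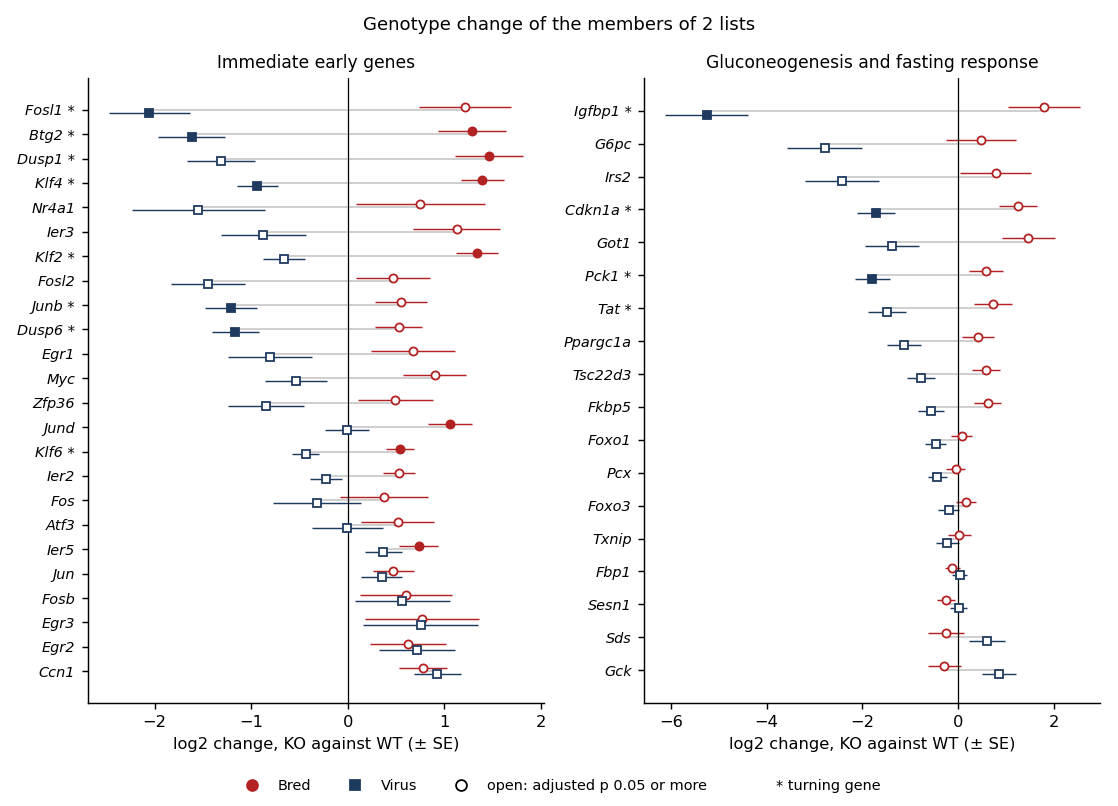
Members of the immediate early list (left) and of the fasting list (right) are ordered by the difference between methods, with the log2 change ± SE in Bred (circles) and Virus mice (squares) on the x axis, filled where called and starred where turning. In the left panel all circles lie right of 0 and most squares left of it. Right of 0 under both methods lie 6 genes, among them Egr2, Egr3, Fosb, Jun and Ccn1.

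The promoters of Btg2 and Dusp1 are shown because they are the ones among the turning immediate early genes that hold the palindromic cAMP response element, a site of CREB and ATF factors. Capitals mark TGACGTCA, searched on both strands. The 300 bases run from 250 before to 50 after the transcription start on the minus strand, from RefSeq (GRCm38.p6), at chr1:134079106-134079405 for Btg2 and chr17:26508423-26508722 for Dusp1.
Btg2: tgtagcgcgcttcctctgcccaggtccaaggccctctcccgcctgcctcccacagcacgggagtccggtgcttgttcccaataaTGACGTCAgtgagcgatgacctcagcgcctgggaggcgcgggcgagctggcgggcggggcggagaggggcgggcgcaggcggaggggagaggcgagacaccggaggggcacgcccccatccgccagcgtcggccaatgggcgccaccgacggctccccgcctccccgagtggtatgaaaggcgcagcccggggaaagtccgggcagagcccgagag
Dusp1: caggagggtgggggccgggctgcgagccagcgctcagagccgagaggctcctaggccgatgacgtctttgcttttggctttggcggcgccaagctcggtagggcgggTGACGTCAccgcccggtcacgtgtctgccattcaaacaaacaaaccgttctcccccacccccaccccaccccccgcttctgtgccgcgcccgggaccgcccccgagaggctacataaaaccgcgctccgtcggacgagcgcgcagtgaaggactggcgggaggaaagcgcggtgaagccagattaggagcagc
Promoters were found for 317 of the 417 turning genes and for 7 of the 8 turning immediate early genes. The motif was in 2.85% of promoters of turning genes higher in Bred KO livers, 2.1% of those lower in Bred KO livers, 2.84% of promoters of all genes tested and 1.79% of all RefSeq promoters of that length, so the turning genes as a whole were close to the background. Of 19 tested immediate early genes with a promoter, the same 2 held it.

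Genes that livers raise in fasting turned through Virus mice. Of 18 tested members, 4 turned (22.2%, against 1.93%), all higher in Bred KO, and 17 of the 18 had opposite signs (94.4%, against 43.6% of all genes). The list median was 0.454 in Bred mice and -0.671 in Virus mice. Igfbp1, an insulin-repressed binding protein for insulin-like growth factors encoded on chromosome 11 (7197782 to 7202546, plus strand), had the largest change of the named genes. It was at 6.66, 45.4 and 25.3 FPKM in Bred WT and 68.0, 186 and 26.8 in Bred KO livers. In Virus mice Igfbp1 was at 1062, 254 and 968 FPKM in WT and 13.7, 24.9 and 28.5 in KO livers. The Virus WT livers exceeded all others, and the Bred groups overlapped. Igfbp1 fell by 5.25 ± 0.87 in Virus mice (38.1-fold, adjusted p = 0.011), its Bred change of 1.79 ± 0.75 did not pass (adjusted p = 0.16), and the difference was 7.04 ± 1.14 (adjusted p = 0.0085).

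Pck1, the rate-setting enzyme of glucose synthesis, differed in being turned by the knockout livers. It was at 547, 659 and 337 FPKM in Bred WT livers, 683, 1262 and 525 in Bred KO livers, 656, 546 and 636 in Virus WT livers and 283, 133 and 180.5 in Virus KO livers. The Virus KO livers were the lowest, and the WT livers did not differ between methods beyond their spread (-0.28, adjusted p = 0.63) while the KO livers did (2.09, adjusted p = 0.015). Pck1 fell 3.45-fold in Virus mice (adjusted p = 0.028). The amino acid enzyme Tat was at 282, 169 and 215 FPKM in Virus KO livers against 670, 418 and 580 in Virus WT, and its difference of 2.22 ± 0.56 was at the threshold (adjusted p = 0.05). The clock gene Per1 was also lowest in Virus KO means and differed between the knockouts (1.60, adjusted p = 0.01). The call of Pck1 was lost in 6 and that of Tat in 10 of 12 fits that left out a library.

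**Figure D5:**
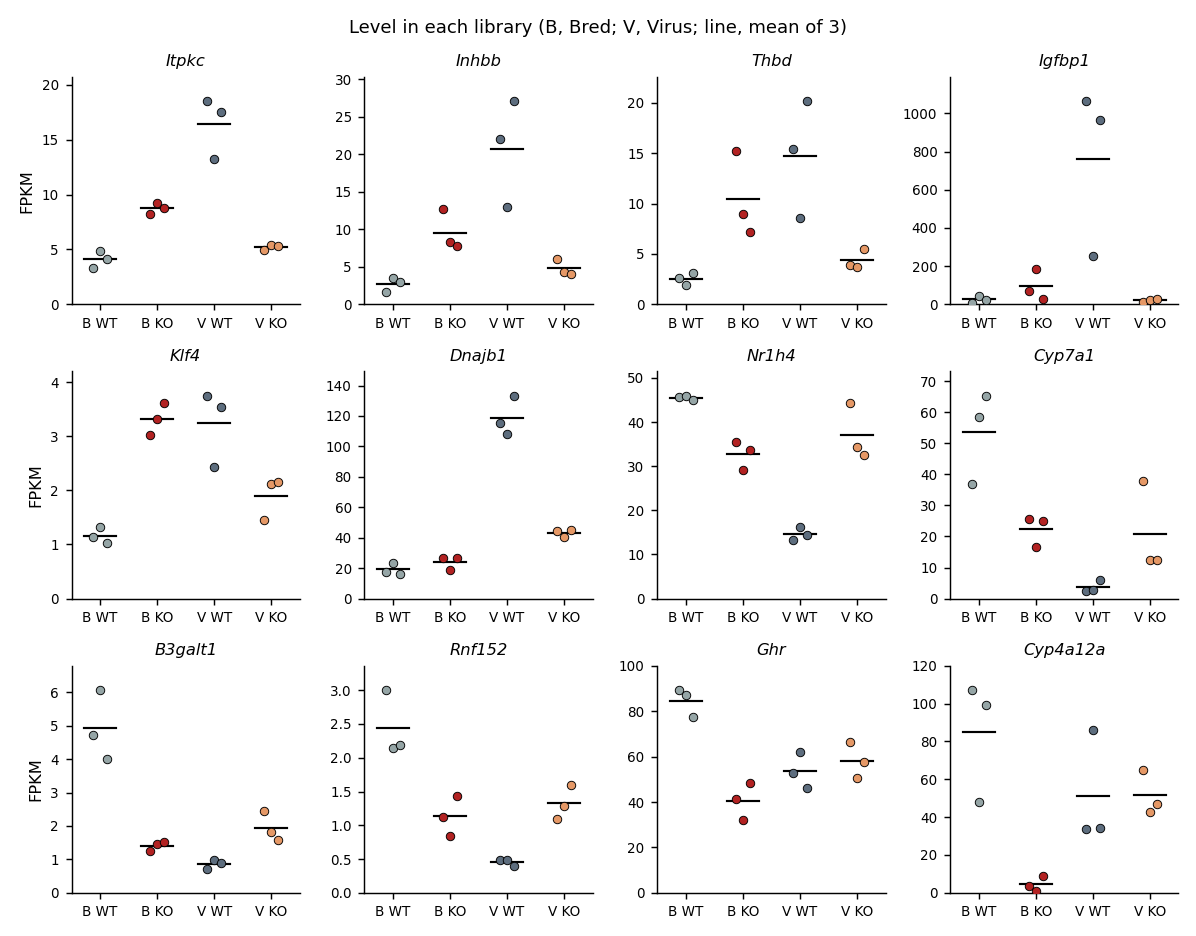
FPKM of 12 genes in each liver, with 3 points and their mean as a line for each group (B, Bred; V, Virus). Virus WT livers are the high group in Itpkc, Inhbb, Igfbp1 and Dnajb1 and the low group in Nr1h4, Cyp7a1, B3galt1 and Rnf152. In Cyp4a12a and Ghr, which do not turn, Bred KO livers have the lowest mean. They lie below all others in Cyp4a12a and overlap Virus WT livers in Ghr.

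Metallothioneins, small metal-binding proteins induced by zinc, glucocorticoid and inflammation, turned as well. Mt2 was at 231, 57.0 and 214 FPKM in Bred WT livers, 333, 717 and 262 in Bred KO livers, 909, 1329 and 442 in Virus WT livers and 124, 192 and 118 in Virus KO livers. Bred KO and Virus WT livers lay above the 6 others. Mt2 fell by 2.80 ± 0.56 in Virus mice (adjusted p = 0.025), and its difference was 4.11 ± 0.77 (adjusted p = 0.016), a call lost without Virus KO 1 or Virus KO 3. Its neighbour Mt1 had a difference of 2.84 ± 0.61 (adjusted p = 0.028), and as the pair are close in sequence their reads may be shared. Neither single change of Mt1 passed (adjusted p = 0.12 in Bred and 0.057 in Virus mice). The call of the Mt1 difference was lost in 5 of 12 fits that left out a library. Socs3, the cytokine-induced feedback inhibitor, fell by 2.03 ± 0.46 in Virus mice (adjusted p = 0.038), from 24.9, 22 and 73.8 FPKM to 9.26, 15.1 and 8.42. Its Bred change of 1.10 ± 0.46 did not pass (adjusted p = 0.16), and the call of its difference was lost in 4 of 12 such fits. In the other direction, the acute phase protein gene Crp fell in Bred mice from 174, 175 and 148 to 122, 114 and 121 FPKM (-0.60, adjusted p = 0.031). Crp was at 119.7, 160.1 and 114 FPKM in Virus WT livers and 195, 186 and 177 in Virus KO livers. That change did not pass (0.34 ± 0.14, adjusted p = 0.23). The Crp difference of -0.94 ± 0.20 (adjusted p = 0.03) was lost in 9 of 12 fits that left out a library. Of 25 tested acute phase and metallothionein genes, 3 turned one way and 2 the other (20% in either direction, against 2.99% of all genes).

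The Mt2 promoter is printed because it carries 4 matches to the metal response element, the site of the zinc-sensing factor MTF1. Capitals mark TGCACNC or TGCGCNC on either strand, with the reverse strand read as its complement, in the plus-strand window chr8:94172368-94172667 (RefSeq, GRCm38.p6).
Mt2: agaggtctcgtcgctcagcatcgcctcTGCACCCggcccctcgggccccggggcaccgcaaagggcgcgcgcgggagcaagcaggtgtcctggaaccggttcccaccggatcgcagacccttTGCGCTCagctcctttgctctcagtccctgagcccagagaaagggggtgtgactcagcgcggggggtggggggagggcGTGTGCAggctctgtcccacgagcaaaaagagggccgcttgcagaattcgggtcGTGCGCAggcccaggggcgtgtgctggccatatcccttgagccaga
This short motif was in 38.1% of promoters of turning genes higher in Bred KO livers, 31.5% of those lower in Bred KO livers, 35% of promoters of all genes tested and 25.7% of all RefSeq promoters.

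Heat shock genes showed a different layer. Dnajb1, a co-chaperone of HSP70, was at 17.5, 23.7 and 16.3 FPKM in Bred WT livers, 26.8, 18.5 and 26.7 in Bred KO livers, 115, 108 and 133 in Virus WT livers and 44.4, 40.3 and 45.3 in Virus KO livers. All 6 Virus livers were above all 6 Bred livers, with Virus WT highest. Dnajb1 fell by 1.62 ± 0.16 in Virus mice (adjusted p = 0.00072) and its Bred change of 0.19 ± 0.16 did not pass (adjusted p = 0.48). Bag3, another co-chaperone of HSP70, rose in Bred mice and fell in Virus mice (0.48 and -0.56, adjusted p = 0.042 and 0.035). Of 18 heat shock genes tested, 16 were lower in Bred WT than in Virus WT livers (against 7.96% of all genes in that direction). Between knockouts, 9 were lower in Bred KO than in Virus KO livers (against 1.76%). Dnajb1 and Bag3 turned, both toward higher in Bred KO (11.1% of the list, against 1.93% of all genes in that direction). Interferon-stimulated genes also differed by method, with 19 of 29 lower in Bred WT and 10 lower in Bred KO and 0 turned by edgeR (2 passed the difference at an unadjusted p of 0.05, and DESeq2 called 1 turning).

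Turning genes lower in Bred KO and higher in Virus KO livers included the receptor and the first enzyme of bile acid control, both low in Virus WT. Nr1h4 encodes FXR, the bile acid receptor, on chromosome 10 (89454234 to 89533585, minus strand). It was at 45.6, 46.0 and 45.0 FPKM in Bred WT livers, 35.5, 29.0 and 33.7 in Bred KO livers, 13.3, 16.2 and 14.3 in Virus WT livers and 44.3, 34.2 and 32.5 in Virus KO livers. Virus WT livers were the lowest group by a wide margin, and Virus KO livers reached the range of the Bred groups. Nr1h4 fell by 0.60 ± 0.13 in Bred mice (adjusted p = 0.025) and rose by 1.17 ± 0.13 in Virus mice (adjusted p = 0.0015), with a difference of -1.77 ± 0.19 (adjusted p = 0.0017).

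Cyp7a1, the first and rate-limiting enzyme of bile acid synthesis, also had its highest mean in Bred WT and its lowest in Virus WT livers. Bred WT livers held 36.8, 58.4 and 65.3 FPKM and Bred KO livers 25.5, 16.6 and 24.9. Virus WT livers held 2.54, 2.63 and 5.92 FPKM and Virus KO livers 37.7, 12.3 and 12.5. The controls of the 2 methods differed 14.2-fold in Cyp7a1 and the knockouts 1.07-fold. Cyp7a1 rose 5.06-fold in Virus mice (adjusted p = 0.021), its Bred change did not pass (-1.39 ± 0.42, adjusted p = 0.067), and the difference was -3.73 ± 0.61 (adjusted p = 0.0089). Nr1h4 and Cyp7a1 were the 2 turning genes among 23 bile acid genes tested (8.7%, against 1.06% of all genes in that direction), and the list median of the difference was -0.00981.

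In B3galt1, Rnf152, Hykk, BC025446, Dixdc1, Klhdc7a, Hlf and G0s2, which turned in this direction too, the Virus WT livers lay below all others. B3galt1, a galactosyltransferase, was at 4.74, 6.07 and 4.00 FPKM in Bred WT livers, 1.24, 1.45 and 1.52 in Bred KO livers, 0.721, 0.984 and 0.888 in Virus WT livers and 2.44, 1.81 and 1.59 in Virus KO livers. Bred WT was high and Virus WT low, and B3galt1 fell 3.82-fold in Bred mice and rose 2.01-fold in Virus mice (adjusted p = 0.003 and 0.033). Rnf152, a lysosomal ubiquitin ligase, fell 2.36-fold and rose 2.58-fold (adjusted p = 0.0085 and 0.0086), and Hykk, the hydroxylysine kinase, fell 1.69-fold and rose 2.28-fold (adjusted p = 0.029 and 0.0077). BC025446, Depdc7 and Fam198a also passed in both comparisons, with differences of -1.34, -1.61 and -1.81. In 12 fits that left out a library, the Bred call was lost in 3, 2 and 8 for these genes in that order. Their Virus calls were lost in 3, 6 and 8 of the 12 fits. The Virus call of B3galt1 was lost in 6 and the Bred call of Hykk in 4 of them. Dixdc1, a Wnt pathway gene, Klhdc7a, Hlf, a circadian output factor, and G0s2, an inhibitor of triglyceride lipase, passed in Virus mice only, where they rose by 1.66, 1.82, 1.47 and 2.83. Fn3k, which repairs glycated proteins, passed in Bred mice only (-1.18 ± 0.21). In Depdc7, Fam198a, BC025446, Dixdc1 and Fn3k the Bred KO and Virus WT livers were low together, below the 6 others. In Fn3k the Bred WT livers also stood apart as the high group.

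Cyp2u1, a fatty acid hydroxylase, showed low values in both Bred KO and Virus WT livers. It was at 2.71, 1.41 and 2.70 FPKM in Bred WT livers, 0.521, 0.342 and 0.804 in Bred KO livers, 0.575, 1.00 and 0.609 in Virus WT livers and 2.10, 1.87 and 2.42 in Virus KO livers. The 6 livers of the low side did not overlap the 6 others, and the difference was -3.53 ± 0.48 (adjusted p = 0.0038). It was 1 turning gene among 29 cytochrome P450 genes tested, a share of 3.45% that is close to the 2.99% of all genes.

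Genes of growth factor signalling turned as well. Of 25 TGF-beta pathway genes tested, 5 turned, all higher in Bred KO (20%, against 1.93%), among them Inhbb, the ligands Bmp2 and Tgfb3 and the signal transducer Smad3. Bmp2, a ligand made largely by liver endothelium, rose in Bred mice from 7.44, 13.3 and 11.1 to 20.5, 17.4 and 19.6 FPKM (0.73 ± 0.17, adjusted p = 0.028). In Virus mice Bmp2 was at 13.6, 15.2 and 16.5 in WT and 13.8, 12.9 and 14.1 in KO livers. These FPKM overlapped, but the log2 CPM from which overlaps were read did not, and Bmp2 was counted as crossed. Smad3 was the reverse, falling in Virus mice from 12, 11.4 and 9.51 to 8.08, 8.40 and 9.15 FPKM (-0.53 ± 0.12, adjusted p = 0.04) with a Bred change of 0.17 ± 0.12 (adjusted p = 0.41). The calls of the difference for Bmp2, Smad3 and Tgfb3 were lost in 10, 9 and 8 of 12 fits that left out a library. The pathway's list median was 0.504 in Bred mice and 0.119 in Virus mice. Ccn2, a matrix protein induced by TGF-beta and YAP, had a difference of 2.50 ± 0.59 (adjusted p = 0.04), lost in 9 of 12 such fits.

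Collagens and hedgehog genes held no turning gene by edgeR, and DESeq2 called 1 turning in each list. As 2.99% of all genes turned, lists this short may hold none without differing from other genes. Of 12 hedgehog genes tested, 0 passed the test of the difference by edgeR, 4 had an unadjusted p under 0.05 and DESeq2 called 2. Of 18 fibrillar and type VI collagen genes, 0 passed the test of the difference by edgeR, 5 had an unadjusted p under 0.05 and DESeq2 called 1. In Bred mice 8 rose (against 3.17% of all genes), and in Virus mice 0 passed by edgeR or DESeq2, 5 had an unadjusted p under 0.05 and 6 passed with the replicate block. The list medians were 1.03 in Bred and 0.575 in Virus mice. Col3a1, a fibrillar collagen of scar tissue, rose by 1.08 ± 0.23 in Bred mice (adjusted p = 0.021) and its change in Virus mice was 0.66 ± 0.22 (adjusted p = 0.14), with a difference of 0.43 ± 0.32 (adjusted p = 0.52). Col1a1 had changes of 1.27 and 0.69 that did not pass (adjusted p = 0.063 and 0.35). Smo, the hedgehog signal transducer, was at 4.73, 6.26 and 8.21 FPKM in Bred WT and 16.3, 10.7 and 18.3 in Bred KO livers, and at 5.95, 4.68 and 5.8 in Virus WT livers and 12.8, 10.4 and 12.9 in Virus KO livers. Smo rose under both methods, by 1.11 ± 0.20 and 0.97 ± 0.20 (adjusted p = 0.011 and 0.028), and the difference was 0.14 ± 0.28 (adjusted p = 0.85). The ligand Ihh rose in Virus mice (1.10 ± 0.25, adjusted p = 0.036), had a change of 0.55 ± 0.24 in Bred mice (adjusted p = 0.17), and its difference did not pass (-0.55 ± 0.34, adjusted p = 0.44). Gli2 was too low to test.

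The remaining 31 of the 448 genes differed between methods with effects of the same sign. In 18 the Bred change was the larger and in 13 the Virus change. Bred KO livers stood apart from the 9 other libraries as the high group in 5 of the 31 (16.1%, against 3.07% of all genes tested) and as the low group in 10 (32.3%, against 3.18%). Virus WT livers did so in 3 (9.68%, against 5.88%) and 6 (19.4%, against 5.45%), Virus KO livers in 3 (9.68%, against 0.924%) and 1 (3.23%, against 0.76%), and Bred WT livers in 2 (6.45%, against 2.46%) and 1 (3.23%, against 2.31%). Each gene was again counted under a single group, so counts other than those of Virus KO are lower limits. The same libraries chose these genes, so the counts are a description. Some belonged to the list of growth hormone and STAT5 genes, a hormone pathway that keeps male-type liver genes on. Ghr, the growth hormone receptor, was at 89.4, 87.1 and 77.3 FPKM in Bred WT and 41.4, 31.9 and 48.4 in Bred KO livers, while Virus livers held 52.8, 62.1 and 46.3 in WT and 66.6, 50.5 and 57.5 in KO. Ghr fell 2.28-fold in Bred mice (adjusted p = 0.0054), and Virus mice overlapped (-0.05 ± 0.16, adjusted p = 0.89). Its difference of -1.14 ± 0.23 (adjusted p = 0.021) was lost without Virus WT 1 or Virus KO 1.

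Cyp4a12a, a male-biased fatty acid hydroxylase with close relatives that may share reads, was at 107, 47.9 and 99.1 FPKM in Bred WT and 3.67, 0.72 and 9 in Bred KO livers. Virus WT livers held 34.0, 85.9 and 34.1 FPKM and Virus KO livers 64.7, 42.8 and 46.8. Bred KO livers were far below all others, with a fall of 4.40 ± 0.67 (adjusted p = 0.0077). Of 19 growth hormone and STAT5 genes tested, 7 fell in Bred mice (against 3.08% of all genes) and 0 passed in Virus mice by edgeR or DESeq2, with 1 at an unadjusted p under 0.05. Mup3 and Mup20, major urinary proteins whose near-identical copies make their counts uncertain, turned formally (-4.01 ± 0.93 and -3.98 ± 0.99), and Virus WT livers ran from 438 to 2936 FPKM in Mup20. Their calls of the difference were lost in 9 and 11 of 12 fits that left out a library. Cyp2f2, a periportal P450, fell 7.81-fold and the chemokine Cxcl9 4.58-fold in Bred mice (adjusted p = 0.006 and 0.003), with Virus changes of -0.32 and -0.05 that did not pass. The difference for Cyp2f2 lost its call without Virus KO 1.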

How the data were processed

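Raw counts per gene were deposited by the authors for 12 DDC-fed livers (total RNA without ribosomal RNA, NEBNext Ultra Directional libraries), with FPKM values from the same fragments. The methods name STAR and mm10, and the submitters' processing notes name HTSeq 0.6.1 and mm10; other parameters are not given in the sources used here. Groups came from the genotype and vector labels. No column of per-sample values was left unused.

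Counts were tested with edgeR 4.0.16 (R 4.3.3): TMM scaling, filterByExpr with a minimum count of 10 (13955 genes of 35275), 1 model with 4 groups and 8 residual degrees of freedom, quasi-likelihood test, Benjamini-Hochberg adjustment, threshold 0.05. The contrast was Bred KO minus Bred WT minus the same difference in Virus mice, and a turning gene passed it with opposite signs. Groups standing apart and overlaps were read from log2 CPM with TMM scaling, which can differ from the printed FPKM. Scripts were tested on simulated data. Pairs of libraries differed by more than sampling noise.

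Named genes were Ptk2, genes the study names for DDC livers, and the 12 turning genes with the smallest p in each direction above 1 FPKM. Turning genes called in both single effects were added, up to 10 in each direction (7 existed lower in Bred KO). The 4 members with the smallest p of each of 46 lists completed the choice. Epop, Epb41l4b, Lox, Slc38a2, Fosl1, Junb, Dusp6, Klf6 and the members of the plotted lists were named after their values were seen. The genes and lists were chosen with earlier results of these data known. Some genes that the rule picked are not reported here.

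Same-numbered WT and KO livers deviated together in Bred mice (correlations 0.268, 0.273 and 0.320, other pairs -0.219 to -0.0724) and not in Virus mice (-0.0619 to -0.0416). The numbers come from the titles, which do not state a shared litter or day. Each result was recomputed with DESeq2 1.42.0, with edgeR on the DESeq2 size factors, without the count filter, with a replicate block, with a correction for gene length, with limma 3.58.1 on log2(FPKM + 1) of the deposited FPKM, in fits of 2 groups alone and without each library. P-values cover the spread between 3 livers per group.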

Additional observations from a re-analysis of the deposited data

Results flagged for a closer look

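The genotype effect differed between Bred and Virus mice in 448 genes by the test of the difference itself. Each named gene that passed is given here with that difference on the log2 scale, Bred minus Virus. Groups of 3 livers were too small for a test of single deviating livers.

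Differences of 3 or more were found for Igfbp1 (7.04), Arg2 (4.28), Mt2 (4.11), Inhbb (3.96), Thbd (3.83), Socs3 (3.13), Akap12 (3.11) and Maff (3.09). Between 2 and 3 lay Cdkn1a (2.97), Btg2 (2.91), Mt1 (2.84), Itpkc (2.79), Dusp1 (2.78), Hdc (2.69), Tagln (2.55), Slc13a3 (2.5), Ccn2 (2.5), Pck1 (2.37), Trp53inp1 (2.33), Klf4 (2.33), Tat (2.22), Plat (2.08), Per1 (2.06), Itga3 (2.02) and Klf2 (2). Below 2 were Tgfb3 (1.99), Dnajb1 (1.81), Shb (1.78), Hmox1 (1.36), Cyp1a2 (1.32), Foxa3 (1.1), Bmp2 (1.05), Bag3 (1.05), Pxn (0.89), Cdh5 (0.82) and Smad3 (0.7).

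Negative differences beyond -3 were found for Cyp4a12a (-4.23), Mup3 (-4.01), Mup20 (-3.98), Cyp7a1 (-3.73), Cyp2u1 (-3.53) and G0s2 (-3.29). From -3 to -1.5 lay B3galt1 (-2.94), Klhdc7a (-2.65), Cyp2f2 (-2.65), Rnf152 (-2.61), Cxcl9 (-2.14), Dixdc1 (-2.03), Hykk (-1.95), Hlf (-1.94), Fn3k (-1.86), Fam198a (-1.81), Nr1h4 (-1.77) and Depdc7 (-1.61). The smaller ones were BC025446 (-1.34), Ghr (-1.14), Zeb2 (-1.05), Crp (-0.94) and Fzd4 (-0.83).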

How the results depend on the processing

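Genes passing the test of the difference numbered 448, and 881 by DESeq2, 1107 with a replicate block in Bred mice only and 764 with gene length and the block together; leaving out a library gave 118 to 505. Turning genes numbered 417, and 792, 957 and 683 under those settings, and 116 to 478. Bred calls numbered 872, and 1682 by DESeq2, 1735 with the replicate block, 2448 with the block in Bred mice only, 1885 with length and block, 0 with the 2 groups alone, and 248 to 1242 without a library. Virus calls numbered 371, and 927, 677, 1221, 758 and 1306 in that order, and 64 to 688. Between WT livers 2290 genes differed (1378 with the 2 groups alone, 1119 to 2415 without a library), and between KO livers 422 (1132 by DESeq2, 58 to 1010). The pairing was seen in Bred mice only; with the replicate block in both methods the difference passed in 670 genes and 605 turned, and Smad3 alone among named genes lost its call.

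Of the 417 turning genes, DESeq2 called 416 as turning, the replicate block 377, and limma on log2(FPKM + 1) 279, with opposite signs kept in 395. Limma gave 826 higher and 185 lower genes in Bred mice (81.7% higher, against 50.7%) and 431 and 101 in Virus mice (81.0%, against 53.1%). Scaling moved the median of all genes by at most 0.0116. Of 59 named differences, 33 kept their call without any 1 library and 26 lost it at least once, with a highest adjusted p of 0.135 (Smad3). Of 40 named Bred calls 21 and of 39 named Virus calls 25 were lost at least once in this way, and all 40 Bred calls were lost in the fit of the Bred libraries alone. The Smo difference, 0.14, was -0.032 without Bred WT 1 (adjusted p = 0.965) and ran up to 0.347 without other single libraries. Limma lost the calls of Tat, Bmp2, Tgfb3, Smad3, Zeb2, Cyp1a2 and Cdh5. Dispersion was larger in Bred than in Virus mice (biological coefficient of variation 0.245 and 0.153), and 3 livers a group limit what can pass. The causes of these changes were not tested.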

Other observations

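The series also holds 16 libraries from mice on normal chow, all of them Alb-Cre breedings: 4 FAKfl/fl;Alb-Cre+ and 4 FAKfl/fl;Alb-Cre- livers, and hepatocytes isolated from 4 mice of each genotype. Of the 417 turning genes, 393 had a value there. In the livers 222 of them (56.5%) and in the hepatocytes 221 (56.2%) had the sign of the genotype change seen in DDC-fed Bred mice, against 46.2% and 47.5% of all genes tested. For the 148 genes lower in DDC-fed Bred KO the shares were 63.9% and 59% of the 144 with a value, and for the 269 genes higher in DDC-fed Bred KO they were 52.2% and 54.6% of 249. Of the 27 genes with a value that were called in both DDC comparisons, 10 (37%) had the Bred sign in chow livers and 17 (63%) the Virus sign, and in hepatocytes 15 (55.6%) had the Bred sign. In these chow libraries 0 of the turning genes passed an adjusted p of 0.05 by edgeR in livers (51 of 393 at an unadjusted p of 0.05) and 3 passed in hepatocytes (46 of 393 at an unadjusted p). Over all 12272 genes with a value, 1 and 39 passed by edgeR, with 1996 and 1086 at an unadjusted p of 0.05.

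Red blood cell transcripts and T and NK cell markers gave no turning member by edgeR or DESeq2, and of 7 B and plasma cell markers 0 turned by edgeR (2 had an unadjusted p under 0.05 for the difference) and 1 by DESeq2. All 8 red blood cell genes tested had opposite signs under the 2 methods, with a median difference of 1.41 that rests on a wide range of marker sums (152 to 601 FPKM in Bred WT, 350 to 1350 in Bred KO, 165 to 441 in Virus WT and 127 to 330 in Virus KO livers). The difference had an unadjusted p under 0.05 in 1 of them. The 11 tested T and NK cell markers had a median difference of -1.35, with sums of 3.46 to 11.4, 3.85 to 5.14, 5.99 to 6.67 and 8.68 to 10.5 FPKM in the same order, and 5 of them had an unadjusted p under 0.05. Of 40 cytosolic ribosomal protein genes, 0 passed the test of the difference by edgeR or DESeq2 and 1 had an unadjusted p under 0.05.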
